A study of Mus musculus with 14 samples.

Results

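Rab GTPases, the small membrane switches that direct vesicle traffic, were examined in Tregs of the mouse (regulatory T cells, the CD4 lineage defined by the transcription factor Foxp3). A gene was counted as a Rab GTPase when its symbol on the array was Rab followed by a number and at most 1 letter and 1 further digit, which left out Rab-like genes and Rab-binding proteins. This rule found 59 genes among 22203 tested transcript clusters (a transcript cluster is the set of probes that reads 1 gene), and each of the 59 was read by a single transcript cluster. All 59 symbols were found among RefSeq mouse genes (assembly GRCm38.p6).

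Rab proteins cycle between an inactive form bound to GDP and an active form bound to GTP. Exchange factors load GTP and activate them, GTPase-activating proteins switch them off, and GDP dissociation inhibitors carry them between membranes, to which they are held by a lipid tail. Active Rabs recruit effectors such as tethers, motors and kinases, and because each Rab sits on its own set of membranes, the family marks the identity of organelles. Rab5 on early endosomes and Rab7 on late endosomes are tied to the lipid kinase Vps34, whose product is read by Rab effectors, and several Rabs act in autophagy. In T cells, Rabs serve the traffic of receptors to the cell surface and the release of cytotoxic granules.

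The study asked what the loss of Atg14, a subunit of the autophagy complex of Vps34, does to resting and activated Tregs. All donors of the sorted cells carried Foxp3-Cre (a Foxp3-YFP-Cre allele, active in cells that express Foxp3). Donors of the group labelled KO were Atg14fl/fl, and those of the control group, labelled het, were Atg14+/fl, so the controls too carried 1 allele that Cre could delete. CD45.2+ marrow of these donors had been mixed with CD45.1+ wild-type marrow and given to irradiated Rag1-/- hosts, which lack T and B cells of their own, and the blood system was left to regrow for 6 to 8 weeks. The labels give no age. Central Tregs (cTregs, CD44low) and effector Tregs (eTregs, CD44+) were sorted apart, giving 4 arrays of control cTregs, 3 of KO cTregs, 4 of control eTregs and 3 of KO eTregs. The source was the spleen by the methods, and spleen with peripheral lymph nodes by the series. The study counts these replicates as chimera mice. The labels do not name the mouse behind each array, so which cTreg and eTreg arrays share a mouse is not known here, and the fit treats the arrays as separate samples.

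Signals are log2 values of robust multi-array average (RMA) processing, a difference of 1 being a doubling. The median signal was between 8.77 and 8.90 on the 14 arrays, and the correlation between any pair of arrays was 0.962 to 0.994. Foxp3 was high in every group, with group means of 12.81 to 12.90, and Cd44 was higher in eTregs by 1.61 in controls and by 1.80 in arrays labelled KO (limma, adjusted P = 0.000121 and 0.00036). Atg14 signal did not follow the labels. Its mean was 9.29 in KO cTregs against 8.94 in control cTregs, and 9.16 in KO eTregs against 8.84 in control eTregs (limma unadjusted P = 0.0213 and 0.0323, adjusted P = 0.9999 and 0.551). The sources do not say whether its probes lie in the deleted exons, and "KO" below is the label of the array. By quantitative PCR, a separate assay, the paper reports that it verified deletion of Atg14 in Tregs sorted from Foxp3-Cre Atg14fl/fl mice. KO eTreg 1 stood apart from the other KO eTregs, with a median correlation of 0.975 to them, and the summed signal of 18 monocyte and macrophage markers was much higher in KO eTreg 2 and KO eTreg 3 than on any other array.

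The family covered the whole endomembrane system. By textbook role, 9 members belong to early endosomes, 12 to late endosomes, lysosomes and autophagosomes, 11 to recycling and the plasma membrane, 13 to the ER and Golgi, 9 to regulated secretion and 5 to the cilium and other sites. Group means of members spanned 5.91 to 13.46. Rab39 and Rab3c lay at or below the highest median of the background probes (6.30) in all groups, and 14 members were at or below the highest median of the negative control probe sets (8.54) in all groups, so a low signal of these genes says little about their transcripts. In bulk RNA, fewer cells that express a gene and less of its RNA per cell cannot be told apart.

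Rab6b was the member that differed between genotypes, and it did so in both subsets. Rab6a and Rab6b are close paralogs that act in traffic from the Golgi back to the ER, and Rab6b is best known from neurons. In control cTregs the Rab6b signal was 8.87, 9.56, 9.39 and 9.19, and in KO cTregs it was 8.38, 8.26 and 7.60. Control eTregs had 9.09, 9.22, 9.23 and 9.06, and KO eTregs had 7.91, 8.42 and 7.81. Every array labelled KO was below every control array of its subset, and the highest KO value over both subsets (8.42) was below the lowest control value (8.87).

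The mean Rab6b signal was 8.04 ± 0.33 (SD, n = 3) in KO eTregs and 9.15 ± 0.08 (n = 4) in control eTregs, a difference of -1.11 (SE 0.20) or 2.16-fold, with a limma adjusted P of 0.0385. In cTregs the means were 8.08 ± 0.42 (n = 3) and 9.25 ± 0.30 (n = 4), a difference of -1.17 (SE 0.20) or 2.26-fold (limma adjusted P = 0.0498). Every KO array was below the highest median of the negative control sets (8.54), while both control means were above it. So low a KO signal says little about the transcript left, and the fold values are uncertain. The genotype effect differed between the subsets by 0.07, with a 95% confidence interval of -0.52 to 0.65. Both calls are close to the threshold. In eTregs the adjusted P rose to 0.0505 when only both eTreg groups were fitted, and to between 0.0537 and 0.171 without any 1 of 8 arrays (control cTreg 3 or 4, KO cTreg 2, any control eTreg, or KO eTreg 3). In cTregs it rose to 0.108 with only both cTreg groups, and to between 0.0521 and 0.278 without any 1 of 11 arrays (each array other than control cTreg 1 and the KO eTregs numbered 1 and 2). The difference itself stayed between -1.29 and -0.99 in eTregs and between -1.32 and -0.94 in cTregs when each array was left out. Over all alternatives the limma adjusted P was 0.00512 to 0.171 in eTregs and 0.00601 to 0.278 in cTregs.

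No difference of this size was seen for Rab6a. Its signal was 11.36, 11.61, 11.77 and 11.61 in control cTregs, 11.36, 11.85 and 11.43 in KO cTregs, 11.20, 11.58, 11.33 and 11.19 in control eTregs, and 11.22, 11.25 and 11.46 in KO eTregs. The groups overlapped throughout. KO minus control was -0.02 in eTregs (95% confidence interval -0.32 to 0.28) and -0.04 in cTregs (-0.34 to 0.26). Within each array, Rab6b minus Rab6a was -2.36 to -2.10 in control eTregs and -3.65 to -2.83 in KO eTregs. The same quantity was -2.50 to -2.05 in control cTregs and -3.83 to -2.98 in KO cTregs. The change of Rab6b minus that of Rab6a was -1.09 in eTregs (SE 0.25) and -1.13 in cTregs (SE 0.27), each with an exact two-sided permutation p of 0.0286, the smallest that 3 arrays against 4 can give. Adjusted over the 84 comparisons made within 21 paralog pairs, both values were 0.80.

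**Figure D1:**
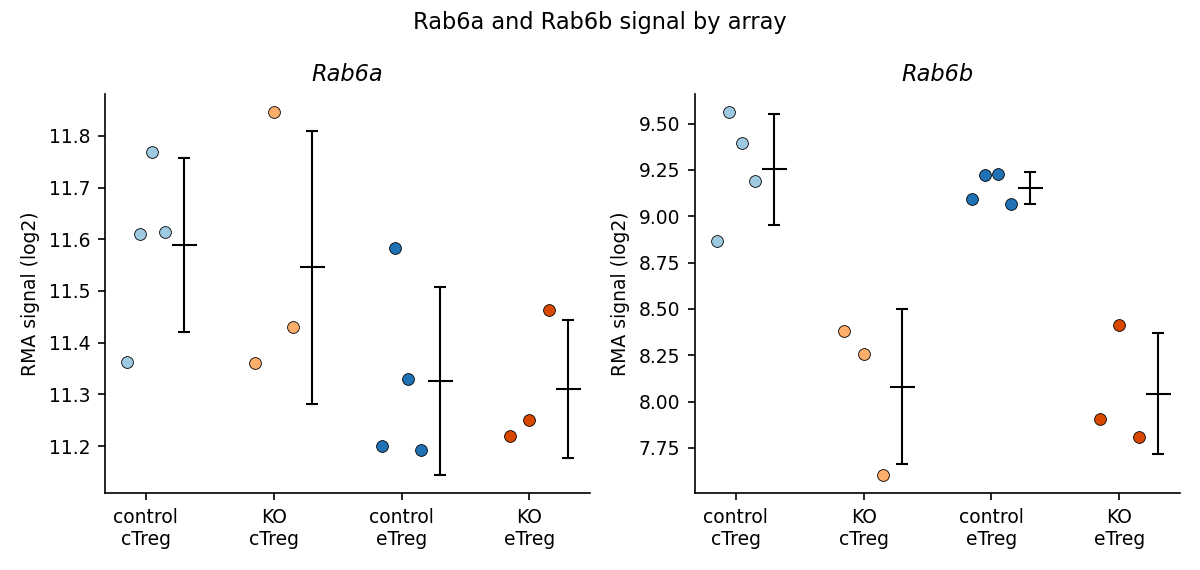
RMA signal (log2) of Rab6a and Rab6b on each array, by group (control cTreg n = 4, KO cTreg n = 3, control eTreg n = 4, KO eTreg n = 3). Points are arrays, and the horizontal bars with whiskers are the mean ± SD. Rab6b lies at 7.60 to 8.42 on the KO arrays and at 8.87 to 9.56 on the control arrays, while the Rab6a groups overlap.

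The start regions of both paralogs are shown because Rab6b was called between genotypes and Rab6a was not. They run from 250 bases before to 50 bases after the RefSeq start (assembly GRCm38.p6), and capitals mark matches, on either strand, to TGANTCA (the AP-1 site), CACGTG (an E-box), GGGCGG (the GC box) or GAGGAA (the core of the PU.1 site). The Rab6a sequence is at chr7:100607336-100607635 on the plus strand, and the Rab6b sequence at chr9:103111824-103112123 on the plus strand.
Rab6a: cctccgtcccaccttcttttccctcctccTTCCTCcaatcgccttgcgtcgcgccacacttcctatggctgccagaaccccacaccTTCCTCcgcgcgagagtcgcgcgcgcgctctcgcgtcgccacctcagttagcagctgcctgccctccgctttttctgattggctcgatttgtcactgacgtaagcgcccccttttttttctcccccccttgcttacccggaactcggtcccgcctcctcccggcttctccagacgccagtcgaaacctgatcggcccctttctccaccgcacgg
Rab6b: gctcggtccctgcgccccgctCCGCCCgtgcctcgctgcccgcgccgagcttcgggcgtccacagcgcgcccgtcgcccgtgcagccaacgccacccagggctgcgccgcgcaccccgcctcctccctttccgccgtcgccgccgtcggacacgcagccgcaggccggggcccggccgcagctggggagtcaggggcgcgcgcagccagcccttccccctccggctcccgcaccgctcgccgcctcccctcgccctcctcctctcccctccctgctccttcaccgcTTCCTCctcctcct
The Rab6a window held 2 matches to GAGGAA and none to the other motifs, with a GC content of 62.7%. The Rab6b window held 1 match to GGGCGG and 1 to GAGGAA, with a GC content of 78.7%. Among all 32851 promoter windows of the table, 35.7% held GGGCGG and 28.3% held GAGGAA, so neither letter string is rare. Over the 60 windows found for 48 of the Rab members, 68.3% held GGGCGG and 18.3% GAGGAA, while 6 held CACGTG and 3 held TGANTCA, motifs found in 7.2% and 7.8% of all windows. The median GC content was 61.2% for Rab windows and 52.7% for all windows.

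Rab6b lies on chromosome 9, and its neighbours there were examined. Of the 10 nearest tested genes on each side in RefSeq order, none was called in either subset by limma. In eTregs their differences between genotypes ran from -0.51 (Ryk) to 0.74 (1300017J02Rik), with 1 of 20 at an unadjusted P below 0.05. In cTregs they ran from -0.57 (Acad11) to 0.31 (Gm5627), with 2 of 20 at that level. These genes were chosen by position and named after their values were seen. Between genotypes, 0.117% of all transcript clusters were called in eTregs and 0.0450% in cTregs. At such shares 20 genes are likely to hold no call, so nothing about the region is concluded. The share of all transcript clusters at an unadjusted P below 0.05 is not given here.

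Rab6b was the 1 member of 59 called in each genotype comparison, where a call is a change of at least 0.5 with an adjusted P below 0.05. Of all transcript clusters, 0.117% were called between KO and control eTregs and 0.0450% between KO and control cTregs. At the looser rule of the same change with an unadjusted P below 0.05, 4 members passed in eTregs (2.72% of all) and 1, Rab6b, in cTregs (0.576% of all). The 3 further members in eTregs were Rab30 (0.76, adjusted P = 0.234), Rab38 (0.57, adjusted P = 0.268) and Rab39b (-0.54, adjusted P = 0.255). Without KO eTreg 1, 4 members were called in eTregs, Rab6b, Rab30, Rab31 and Rab38, but the share of all transcript clusters called there is not given. The eTreg and cTreg comparisons share no array, but they are not independent results. Both rest on the same fit, whose variance is estimated from the arrays of all groups. Same-numbered cTreg and eTreg arrays had correlated deviations, and whether they share a mouse is not known here. The median genotype difference over the members was 0.05 in eTregs, against -0.02 over all transcript clusters, and -0.04 in cTregs, against 0.02.

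The share of members without overlap between genotypes was near that of all transcript clusters, so it is not a trait of the family. In eTregs there were 4 of 59, or 6.78% (6.85% of all transcript clusters). They were Rab6b and Rab39b, lower, with Rab24, an autophagy Rab, and Rab3a, a Rab of synaptic vesicles, higher by 0.27 and 0.33 (limma adjusted P = 0.50 and 0.445). In cTregs there were again 4 (5.05% of all), namely Rab6b and Rab26, lower, and Rab33a and Rab44, higher. The differences of Rab26, Rab33a and Rab44 were -0.36, 0.23 and 0.20. Rab24, Rab3a, Rab26, Rab33a and Rab44 were named after their values were seen, and limma called none of them between genotypes.

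**Figure D2:**
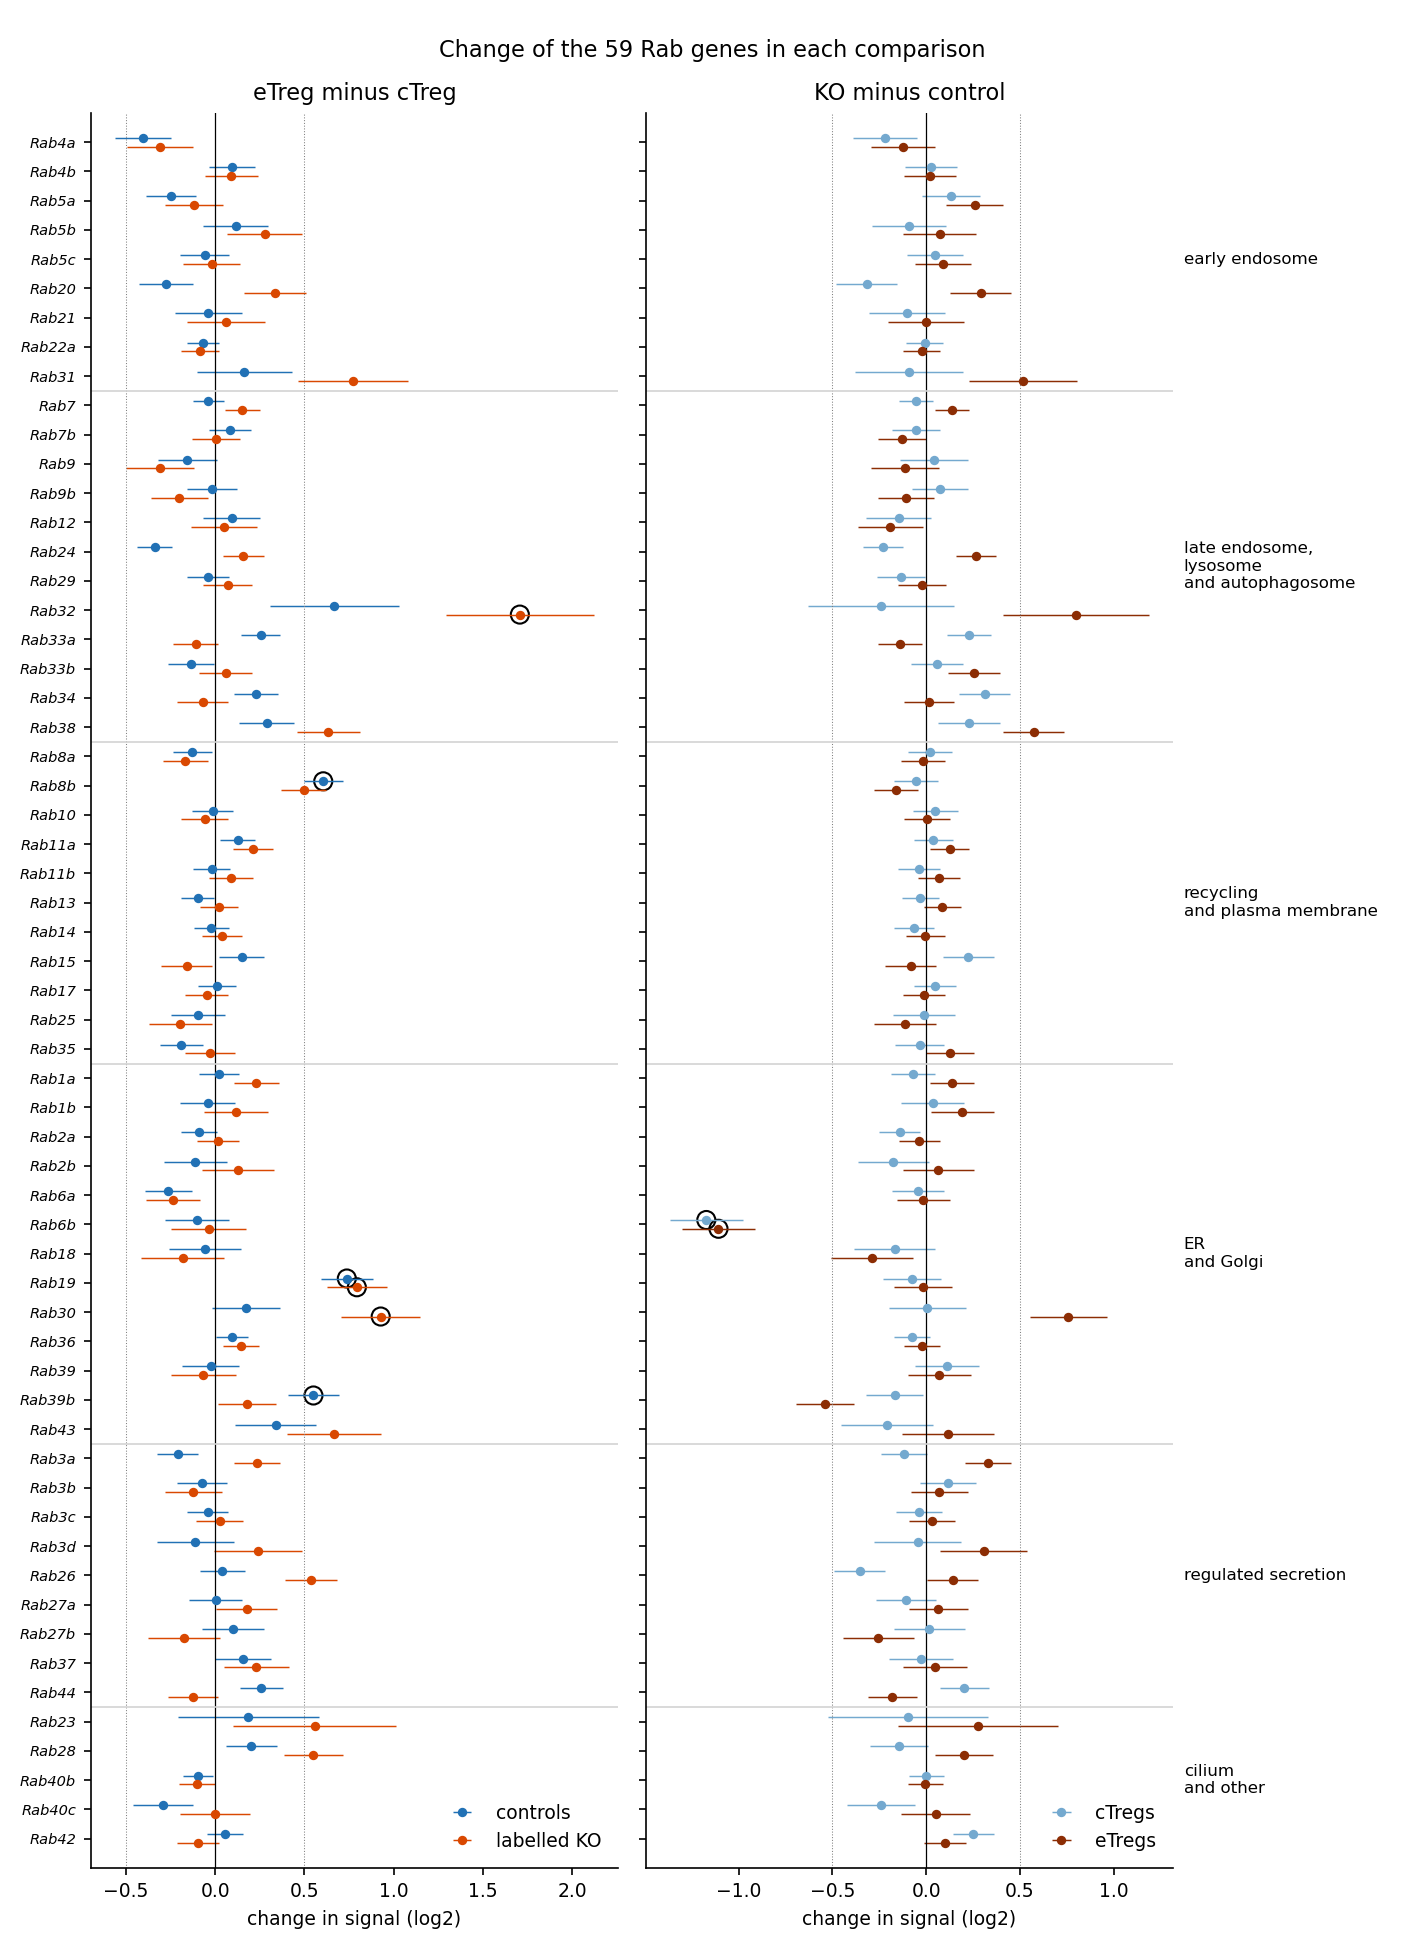
Change in signal (log2, horizontal axis) of the 59 Rab genes, grouped by role. The left panel shows eTreg minus cTreg for each genotype, and the right panel shows KO minus control in cTregs and in eTregs. Points are limma differences with their SE, dotted lines mark changes of 0.5, and open circles mark called members. Rab6b is the circled gene in the right panel, at -1.17 and -1.11.

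None of the endosomal Rabs closest to the Vps34 lipid was called between genotypes. Rab5a, Rab5b and Rab5c direct fusion of early endosomes, Rab7 that of late endosomes and lysosomes, and Rab11a the recycling of cargo to the surface. Rab7 was 13.35, 13.39, 13.38 and 13.32 in control cTregs, 13.25, 13.35 and 13.32 in KO cTregs, 13.27, 13.36, 13.35 and 13.31 in control eTregs, and 13.31, 13.54 and 13.53 in KO eTregs. The groups overlapped, and KO minus control was 0.14 in eTregs and -0.05 in cTregs (limma unadjusted P = 0.156 and 0.567).

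Rab5a had 11.46, 11.32, 11.64 and 11.41 in control cTregs, 11.61, 11.65 and 11.51 in KO cTregs, 10.72, 11.37, 11.39 and 11.37 in control eTregs, and 11.67, 11.35 and 11.39 in KO eTregs. Control eTreg 1 was low and the other arrays overlapped. Rab5b gave 9.56, 10.20, 9.86 and 9.91 in control cTregs, 9.32, 10.02 and 10.04 in KO cTregs, 9.64, 10.31, 9.999 and 10.05 in control eTregs, and 9.86, 10.26 and 10.09 in KO eTregs. Rab5c gave 10.94, 11.32, 11.34 and 11.38 in control cTregs, 11.17, 11.62 and 11.09 in KO cTregs, 11.16, 11.31, 11.06 and 11.20 in control eTregs, and 11.02, 11.48 and 11.31 in KO eTregs. Neither paralog separated the groups. Across the 3 Rab5 genes, KO minus control was 0.07 to 0.26 in eTregs and -0.09 to 0.13 in cTregs, and none was called. Rab11a was 12.16, 12.31, 12.27 and 12.46 in control cTregs, 12.21, 12.48 and 12.32 in KO cTregs, 12.34, 12.50, 12.47 and 12.40 in control eTregs, and 12.45, 12.56 and 12.64 in KO eTregs. Its groups overlapped between genotypes, with a difference of 0.12 in eTregs and 0.04 in cTregs (limma unadjusted P = 0.252 and 0.727).

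Between the subsets, 3 members were higher in control eTregs than in control cTregs, 3 of 59, where 3.06% of all transcript clusters were called in either direction and 2.14% higher. They were Rab8b, Rab19 and Rab39b, and no member was called lower. The median difference over the members was -0.02, and over all transcript clusters it was 0.00. The windows around the starts of these 3 genes are given because all 3 were called higher in control eTregs. They lie at chr9:66919656-66919955 on the minus strand for Rab8b, at chr6:39381103-39381402 on the plus strand for Rab19, and at chrX:75578182-75578481 on the minus strand for Rab39b, with capitals as above.
Rab8b: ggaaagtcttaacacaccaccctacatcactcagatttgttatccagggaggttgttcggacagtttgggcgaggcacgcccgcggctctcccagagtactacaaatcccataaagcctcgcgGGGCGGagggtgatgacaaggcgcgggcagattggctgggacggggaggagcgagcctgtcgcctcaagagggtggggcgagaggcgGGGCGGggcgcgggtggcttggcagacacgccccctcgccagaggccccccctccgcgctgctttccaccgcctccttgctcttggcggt
Rab19: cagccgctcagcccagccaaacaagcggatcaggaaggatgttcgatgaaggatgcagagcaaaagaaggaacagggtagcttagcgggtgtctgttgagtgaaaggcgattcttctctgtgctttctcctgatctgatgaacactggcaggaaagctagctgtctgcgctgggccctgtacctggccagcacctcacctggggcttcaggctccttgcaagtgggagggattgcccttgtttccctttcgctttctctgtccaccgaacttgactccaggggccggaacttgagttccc
Rab39b: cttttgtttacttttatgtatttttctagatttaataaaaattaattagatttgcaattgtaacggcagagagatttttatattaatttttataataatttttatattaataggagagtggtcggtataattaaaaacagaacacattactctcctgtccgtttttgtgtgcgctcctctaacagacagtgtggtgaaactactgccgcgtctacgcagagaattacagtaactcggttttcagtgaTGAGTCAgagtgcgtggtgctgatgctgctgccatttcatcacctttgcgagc
The Rab8b window held 2 matches to GGGCGG, the Rab39b window held 1 to TGANTCA, and the Rab19 window held none of the motifs. Their GC contents were 65.3% for Rab8b, 55.7% for Rab19 and 35.7% for Rab39b. The 3 windows shared no motif of those searched.

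Rab8b, which carries secretory vesicles to the plasma membrane, had the smallest P of the family between control subsets. Its signal was 11.68, 11.88, 11.80 and 11.62 in control cTregs and 12.16, 12.32, 12.48 and 12.45 in control eTregs, so every eTreg array was above every cTreg array. The difference was 0.61 (SE 0.11), or 1.52-fold (limma adjusted P = 0.00377). In arrays labelled KO, the signal was 11.62, 11.65 and 11.81 in cTregs and 11.97, 12.31 and 12.28 in eTregs. The groups again did not overlap, and the difference of 0.50 missed the call (limma adjusted P = 0.05003). Its paralog Rab8a differed by -0.13 between control subsets, and the change of Rab8b exceeded that of Rab8a by 0.73 (SE 0.12, exact two-sided permutation p = 0.0286, the smallest for 4 arrays against 4, adjusted 0.80). This p takes the arrays as unpaired, and would not hold if cTreg and eTreg arrays share a mouse.

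Rab19, a less studied Rab of the Golgi, was higher in eTregs of both genotypes. Control cTregs had 9.71, 9.75, 9.74 and 10.03, and control eTregs 10.72, 10.62, 10.43 and 10.40. KO cTregs had 9.53, 9.95 and 9.71, and KO eTregs 10.24, 10.92 and 10.42. The subsets did not overlap in either genotype. The difference was 0.74 (SE 0.14, 1.67-fold, limma adjusted P = 0.00671) in controls and 0.79 (SE 0.17, 1.73-fold, adjusted P = 0.0174) in arrays labelled KO, where leaving out KO cTreg 1 (0.70), KO cTreg 3 (0.78) or KO eTreg 2 (0.60) ended the call. The genotype by subset interaction was 0.06 (95% confidence interval -0.41 to 0.52).

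Rab39b, a Rab of the ER and Golgi that is linked to autophagy, was called in controls alone. Its signal was 7.36, 7.57, 7.50 and 7.52 in control cTregs and 8.43, 7.90, 8.15 and 7.66 in control eTregs, with no overlap. KO cTregs had 7.22, 7.23 and 7.50, and KO eTregs 7.33, 7.64 and 7.51, which overlapped. The difference was 0.55 (SE 0.14, adjusted P = 0.0403) in controls and 0.18 (SE 0.16) in arrays labelled KO. The interaction of -0.37 had a limma unadjusted P of 0.104, so the subset effects were not shown to differ between genotypes. In eTregs, all 3 KO arrays were below all 4 control arrays. The call in controls was lost without any 1 of 8 arrays (adjusted P = 0.0516 to 0.128), namely any control cTreg, KO cTreg 2, or control eTreg 1, 2 or 3. It was also lost with array medians subtracted (adjusted P = 0.0679), with the arrays quantile normalised again (0.0780), with the replicate number as a block within each genotype (0.0711), and with array weights, where the difference was 0.43. A filter on dim transcript clusters left Rab39b untested, and all group means of Rab39b were below the highest median of the negative control sets.

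**Figure D3:**
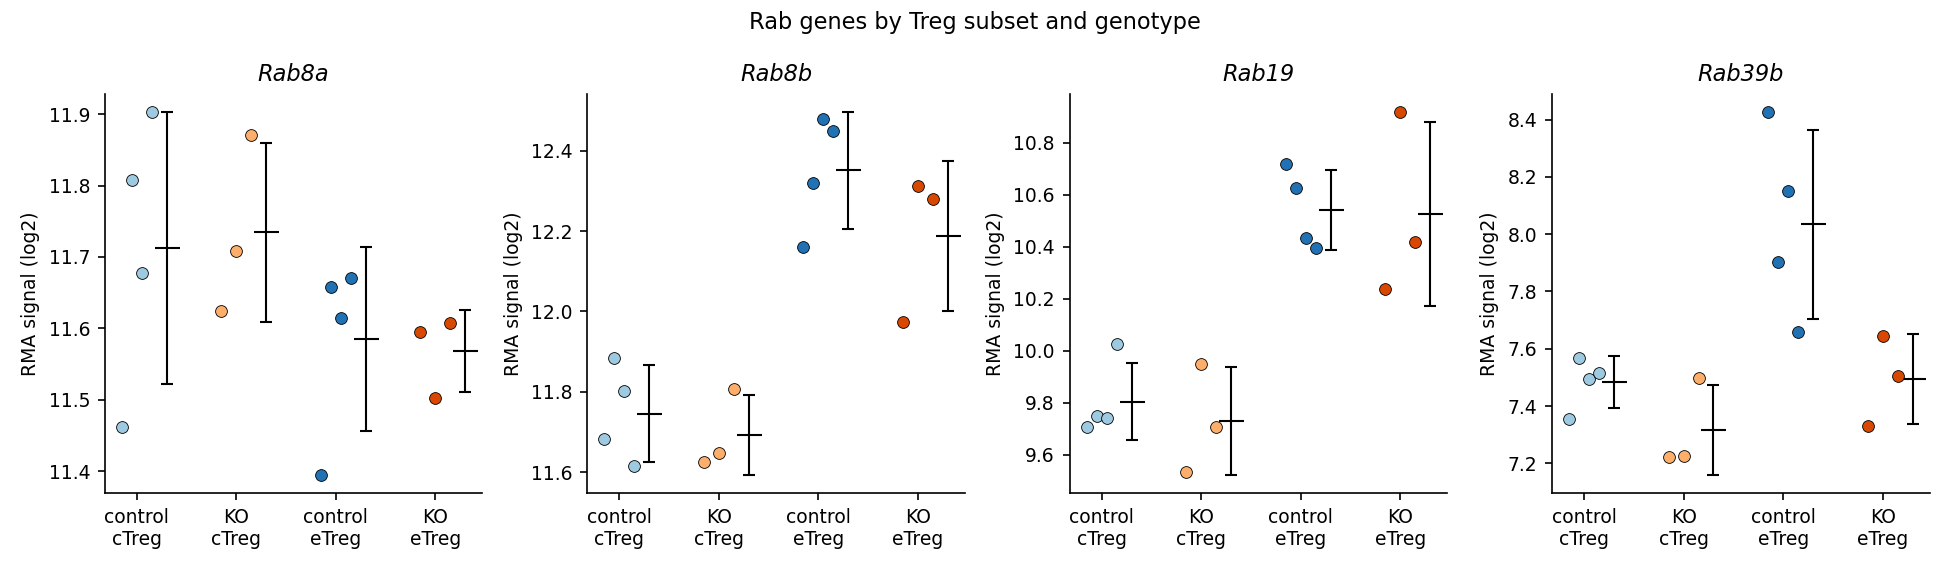
RMA signal (log2) of Rab8a, Rab8b, Rab19 and Rab39b on each array, by group (n = 4, 3, 4 and 3 from left to right). Points are arrays, and the bars with whiskers are the mean ± SD. Rab8b and Rab19 are higher in eTregs of both genotypes, Rab39b in control eTregs, and Rab8a groups lie close together.

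In arrays labelled KO, 3 members were called between the subsets, Rab19, Rab30 and Rab32, all higher in eTregs, where 2.35% of all transcript clusters were called in either direction and 2.02% higher. The looser rule passed 8 members, all higher (4.65% of all), by adding Rab26, Rab28, Rab31, Rab38 and Rab43. The median difference was 0.05 over the members and -0.04 over all transcript clusters. The counts rested on single arrays. Without KO eTreg 1 there were 9 calls, namely Rab19, Rab26, Rab28, Rab30, Rab31, Rab32, Rab38, Rab43 and Rab8b. Leaving out KO cTreg 1, KO cTreg 3 or KO eTreg 2 left no member called, and leaving out KO cTreg 2 or KO eTreg 3 left 1, Rab19. The share of all transcript clusters called with an array left out is not given here. These counts are therefore not read as a trait of the Rab genes.

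Rab32 and Rab38, which serve lysosome-related organelles such as melanosomes, Rab31, which moves cargo between the Golgi and endosomes, and Rab30, a Golgi Rab, shared an array pattern. Rab32 was 8.10, 9.92 and 9.26 in KO eTregs, 6.92, 7.67 and 7.57 in KO cTregs, 8.30, 9.12, 8.09 and 7.67 in control eTregs, and 6.95, 7.96, 7.55 and 8.05 in control cTregs. Rab30 was 6.86, 7.35 and 7.71 in KO eTregs, 6.39, 6.49 and 6.25 in KO cTregs, 6.86, 6.93, 6.18 and 6.21 in control eTregs, and 6.27, 6.54, 6.22 and 6.47 in control cTregs. For both genes KO eTreg 2 and KO eTreg 3 were the highest of the 14 arrays, and the KO subsets did not overlap. The difference between the subsets was 1.71 (SE 0.42, 3.27-fold, limma adjusted P = 0.0408) for Rab32 and 0.93 (SE 0.22, 1.90-fold, adjusted P = 0.0357) for Rab30. Over all alternatives the limma adjusted P was 0.00126 to 0.914 for Rab32 and 0.00268 to 0.843 for Rab30.

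Rab31 had means of 9.57 ± 0.88 (SD, n = 3) in KO eTregs and 8.80 ± 0.13 (n = 3) in KO cTregs, and Rab38 had 7.87 ± 0.40 and 7.24 ± 0.10. On single KO eTreg arrays Rab31 was 8.55, 10.10 and 10.05, and Rab38 was 7.42, 8.16 and 8.03. KO eTreg 2 and 3 were again highest for both genes. All group means of Rab30 and Rab38 were below the highest median of the negative control sets. The same held for Rab32 in every group but KO eTregs, where its mean was 9.09, so its fold value starts from a low signal.

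Macrophage markers were highest in the same arrays. The summed linear signal of the 18 markers was 34716 in KO eTreg 2 and 34025 in KO eTreg 3, against 6862 in KO eTreg 1, 8745 to 11704 in control eTregs, 5339 to 5889 in KO cTregs and 4750 to 5158 in control cTregs. In KO eTregs, 18 of 18 markers had a higher mean than in control eTregs, with a median difference of 1.03, and 11 passed the looser rule. The markers also differed between control subsets, where 17 of 18 had a higher mean in eTregs, with a median difference of 0.80. Mrc1 was 11.3 and 10.6 in KO eTreg 2 and 3 and 7.3 in KO eTreg 1. An array signal has no true zero, so none of the markers can be given as absent. B cell markers (8 genes) had a summed signal of 4966 to 11060 in KO eTregs and 5274 to 5999 in control eTregs, and markers of CD8 T cells and NK cells (9 genes) 6320 to 10543 and 6564 to 8012. Dendritic cell markers (10 genes) summed to 17080 in KO eTreg 2 and 16445 in KO eTreg 3, against 10529 in KO eTreg 1 and 9344 to 11253 in control eTregs. Between genotypes in eTregs, 7 of the 10 had a difference above 0 with a median of 0.48, 5 passed the looser rule, and 1, Siglech of plasmacytoid dendritic cells, was called (1.78, limma adjusted P = 0.000483). Erythroid markers (8 genes) summed to 4600 to 17136 in KO eTregs and 8869 to 14173 in control eTregs, and none of the 8 had a higher mean in KO eTregs, with a median difference of -0.34.

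With the mean marker signal as a covariate, no member was called between the KO subsets, and the differences were 0.32 for Rab32, 0.31 for Rab30, 0.10 for Rab38 and -0.51 for Rab31 (limma adjusted P = 0.489 to 0.952). With KO eTreg 2 and 3 both left out, they were 0.72, 0.48, 0.18 and -0.25. That fit keeps 1 KO eTreg array, which is assumed to vary like the other groups. The covariate also ended the calls of Rab8b, Rab19 and Rab39b between control subsets, at 0.48, 0.52 and 0.43 (adjusted P = 0.0748, 0.125 and 0.282). These were the highest values over all alternatives, the lowest being 0.000122, 0.000626 and 0.0118. In controls the covariate itself separated the subsets, at 7.84 to 7.99 in cTregs and 8.65 to 9.04 in eTregs. It also separated the KO subsets, at 8.02 to 8.16 in cTregs and 8.36 to 10.55 in eTregs. The KO and control cTregs did not overlap in it either. In these comparisons the covariate fit cannot tell a group difference from a difference in marker level. No conclusion is drawn there from calls lost or kept, or from the changed differences. For Rab6b the difference between genotypes was -1.22 in eTregs (adjusted P = 0.0691) and -1.19 in cTregs (adjusted P = 0.0487) with the covariate, and -1.25 in eTregs with KO eTreg 2 and 3 left out (adjusted P = 0.0804). Beyond these values, the part that other cells play in the results was not tested.

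**Figure D4:**
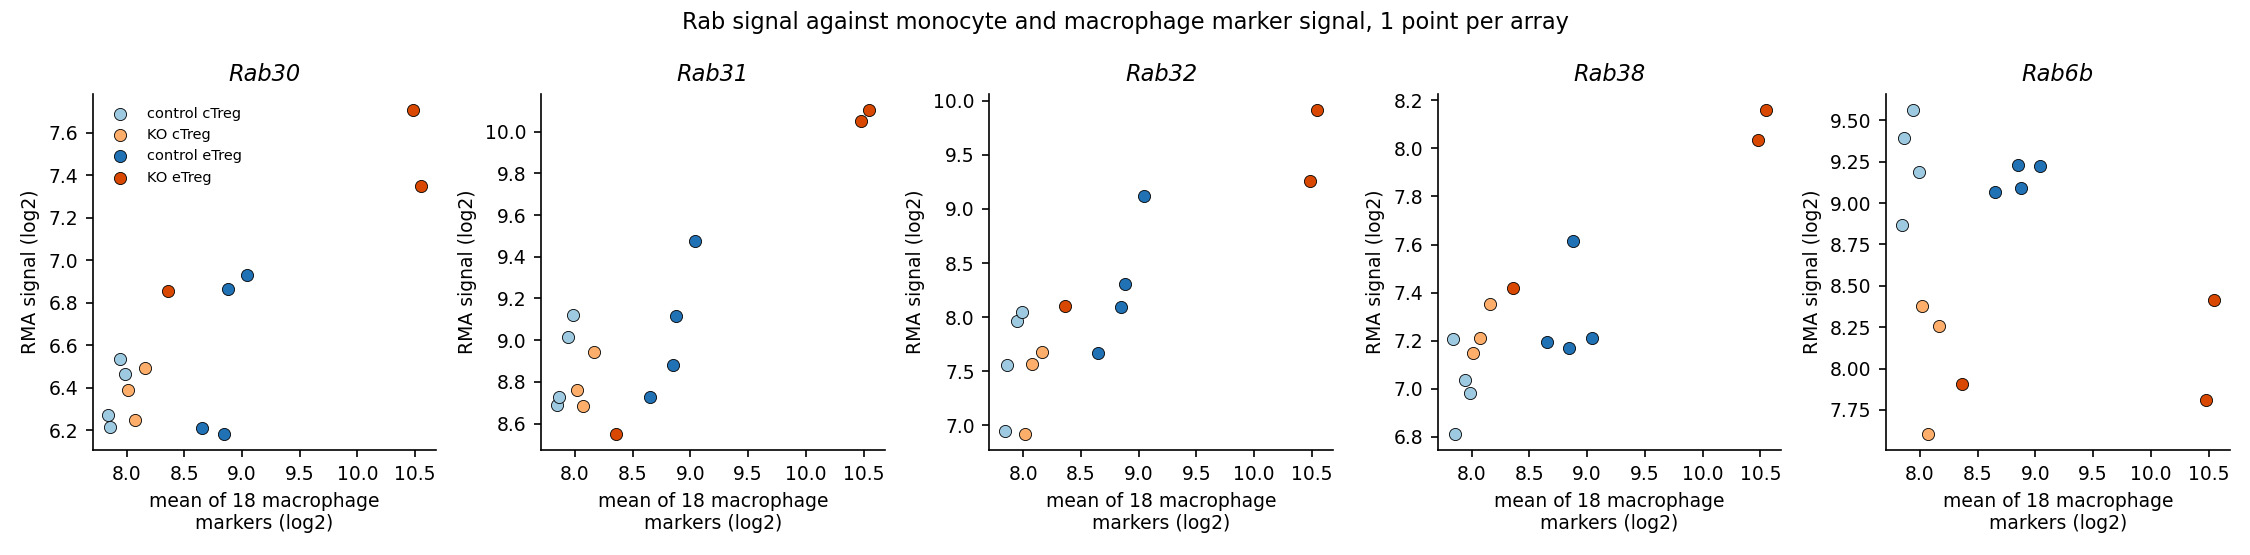
RMA signal (log2, vertical axis) of Rab30, Rab31, Rab32, Rab38 and Rab6b against the mean log2 signal of 18 monocyte and macrophage markers (horizontal axis), with 1 point per array, coloured by group. KO eTreg 2 and 3 lie far to the right, at marker means of 10.55 and 10.48, and are highest for Rab30, Rab31, Rab32 and Rab38, while for Rab6b the KO arrays of both subsets are low.

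The other members at the looser rule between the KO subsets were Rab26, Rab28 and Rab43. Rab26, of secretory granules, differed by 0.54 (means 9.24 in KO eTregs and 8.70 in KO cTregs), Rab28, of the cilium, by 0.55 (9.80 and 9.25), and Rab43, of the ER and Golgi, by 0.66 (9.78 and 9.12), with limma adjusted P values of 0.0675, 0.107 and 0.253. Without overlap between the KO subsets, 8 members were higher (6.46% of all) and 1 was lower (7.49% of all), and between the control subsets 5 members did not overlap in either direction (11.1% of all).

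By role, the calls were too few to show whether any class was favoured. The ER and Golgi class, the largest with 13 of the 59 members, held Rab6b. It also held 2 of the 3 calls in controls and 2 of the 3 in arrays labelled KO, with Rab19 counted in both. The recycling and plasma membrane class held Rab8b and the late endosome class held Rab32. None of the 9 early endosome members, 9 secretion members or 5 cilium and other members was called in any comparison. The largest size of a median difference of a class over the 4 comparisons of subsets and genotypes was 0.18, for the secretion Rabs between the KO subsets. Over all 59 members the range of differences was -0.40 to 0.74 between control subsets and -0.31 to 1.71 between KO subsets.

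Whether the genotype effect depended on the subset was asked by the interaction. No member was called by limma (0% of all transcript clusters), 2 passed the looser rule (3.05% of all), and 6 had an unadjusted P below 0.05 (6.12% of all). Rab30 had an interaction of 0.75 (SE 0.29, unadjusted P = 0.0203, adjusted P = 0.789) and Rab20, of early endosomes and phagosomes, 0.61 (SE 0.23, unadjusted P = 0.0177, adjusted P = 0.789). KO minus control for Rab20 was 0.29 in eTregs and -0.32 in cTregs. The smallest unadjusted P of the members was that of Rab24, whose interaction of 0.497 was just below the required change of 0.5. Its SE was 0.15 (limma unadjusted P = 0.0045, adjusted P = 0.718). KO minus control for Rab24 was 0.27 in eTregs and -0.23 in cTregs.

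Few paralog pairs differed in their change. Of 21 pairs, each compared 4 times, 1 pair had an exact p below 0.05 in each of 3 comparisons: Rab8a and Rab8b between control subsets, and Rab6a and Rab6b between genotypes in cTregs and in eTregs. In arrays labelled KO, 3 against 3 cannot reach below 0.10, and 3 pairs had that exact p between the KO subsets. Rab8b exceeded Rab8a by 0.66 (SE 0.13), Rab38 changed by less than Rab32 (-1.07, SE 0.36), and Rab11b by less than Rab11a (-0.13, SE 0.04). The lowest value adjusted over the 84 comparisons was 0.80.

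**Figure D5:**
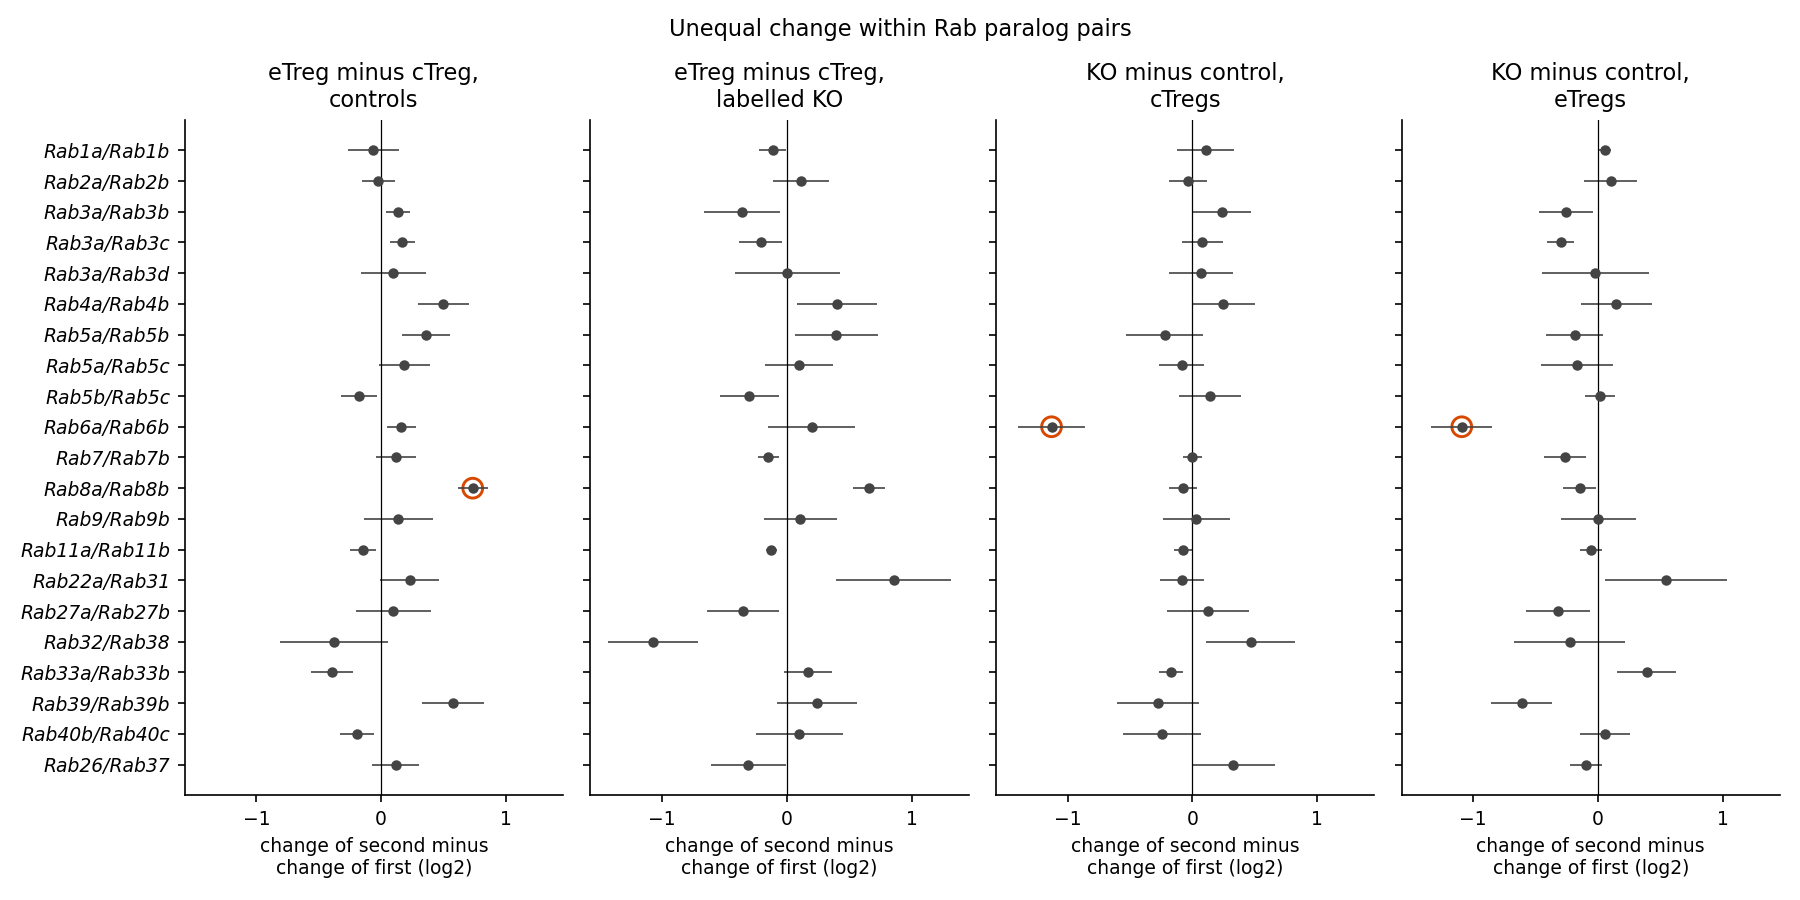
Difference between the changes of both members of 21 Rab paralog pairs (second minus first, log2, with SE) in 4 comparisons. Orange circles mark an exact two-sided permutation p below 0.05 before adjustment: Rab8a/Rab8b between control subsets (0.73) and Rab6a/Rab6b between genotypes (-1.13 in cTregs and -1.09 in eTregs).

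Genes of the Rab cycle, listed from textbook knowledge, were called between the subsets, and none was called between genotypes. Of 37 exchange factors, 1 was called higher and 2 lower in control eTregs, where 3.06% of all transcript clusters were called in either direction. Rin2, an exchange factor for Rab5, differed by 1.04, Als2cl, a relative of the Rab5 exchange factor alsin, by -0.64, and Rab3ip, the Rab8 exchange factor Rabin8, by -0.87. Of 35 GTPase-activating proteins 1 was called, Tbc1d15, which acts on Rab7, at -0.86. Limma adjusted P values of these 4 genes were 0.000316 to 0.0347.

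Of 55 effectors, 4 were called higher in control eTregs (2.14% of all transcript clusters) and none lower. Eea1, the early endosome tether that binds both Rab5 and the Vps34 lipid, was 9.89, 9.34, 9.82 and 9.63 in control cTregs and 11.68, 11.43, 11.76 and 11.56 in control eTregs, with no overlap. Its difference was 1.94 (SE 0.16, limma adjusted P = 3.95e-06). In KO eTregs it was 10.56, 11.12 and 11.36, below every control eTreg, a difference of -0.60 between genotypes (unadjusted P = 0.00307, adjusted P = 0.264). Rilpl2, an effector of Rab8 and Rab10, differed by 1.09, and the Rab11 effectors Rab11fip1 and Rab11fip4 by 0.52 and 0.58. None of the 8 genes for GDP dissociation inhibitors and prenylation was called. In arrays labelled KO (2.35% of all) the calls were Rin2 (0.95), Als2cl (-0.72), Eea1 (1.49), Rilpl2 (1.03) and the Rab7 effector Osbpl1a (0.77). Median differences of the 4 lists ran from -0.09 to 0.09 between control subsets. Between genotypes no gene of the 4 lists was called by limma in either subset, and at the looser rule 5 passed in eTregs (2.72% of all) and 1 in cTregs (0.576% of all).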

How the data were processed

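Sorted Treg RNA was read on Clariom S mouse arrays, 14 in all. The authors ran the RMA summary of Expression Console (version 1.1), so each deposited value is a log2 signal. Of 28846 entries, 6640 control sets and 3 with a blank symbol were set aside, and 22203 were tested without a filter. Groups came from the labels. For every entry 4 group means were estimated with the R (4.3.3) package limma (3.58.1), with eBayes moderation at 5.65 prior beside 10 residual degrees of freedom, and P values were adjusted by Benjamini-Hochberg over all 22203. The fit was tested on simulated data. Paralog pairs were compared by an exact permutation test on within-array differences. The Rab members, roles, pairs and lists were chosen with earlier results of these data known. Values per array are given for called members, Rab6a, Rab6b, Rab5a, Rab5b, Rab5c, Rab7, Rab11a and members at the looser rule without overlap between genotypes, with group means for other members at the looser rule. The macrophage covariate and the joint removal of KO eTreg 2 and 3 were chosen after seeing the data. No build is named for the identifiers, array scans were not used here, and the number of arrays limits precision. A gene checked against the sort is not reported here.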

Additional observations from a re-analysis of the deposited data

Results flagged for a closer look

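Among the 118 sets of 4 control arrays (59 members in each of 2 control groups), 10 had an array that stood far from the other 3, where chance flags about 1 in 20 sets. In control eTreg 1, which gave 5 of the 10, Rab5a (10.72), Rab10 (12.24) and Rab20 (7.86) were low and Rab25 (9.15) and Rab38 (7.61) were high. Rab40c was low in control eTreg 4 (9.86). In control cTregs, Rab19 was high in array 4 (10.03), Rab3d was high in array 2 (9.58), Rab1a was low in array 2 (10.87) and Rab5c was low in array 1 (10.94). The interaction of genotype and subset passed the looser rule for 2 members, at 0.61 for Rab20 and 0.75 for Rab30. These are 3.39% of the members, near the 3.05% of all transcript clusters. Neither gene passed the adjustment over all transcript clusters (limma adjusted P = 0.789 for each).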

How the results depend on the processing

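The number of arrays limits what can be called. Shares of all transcript clusters are given for the main fit alone. Counts under other settings therefore show only how far the calls moved. Leaving out each array gave 2 to 3 called members between control subsets, 0 to 9 between KO subsets, 0 to 4 between genotypes in eTregs, 0 to 1 in cTregs, and 0 to 1 for the interaction (Rab31, without KO eTreg 1). Rab6b minus Rab6a ranged from -1.31 to -0.90 in eTregs and from -1.37 to -0.95 in cTregs. Between KO subsets (3 called), the unadjusted P gave 8 members, the filter on dim transcript clusters (mean below the 40th percentile) 1, array weights 7, only the 2 groups 0, the macrophage covariate 0, and leaving out KO eTreg 2 and 3 gave 0. Between genotypes in eTregs (1 called) the same settings gave 4, 1, 3, 0, 0 and 0. Between genotypes in cTregs (1 called) the 75th percentile scaling and only the 2 groups gave 0 each. Between control subsets the macrophage covariate gave 0. The unadjusted P gave 2 for the interaction. Rab31 between KO subsets reversed to -0.51 with the covariate and to -0.25 without KO eTreg 2 and 3. Array weights moved the count of Rab cycle genes from 5 to 11 between KO subsets and from 0 to 5 between genotypes in eTregs. Apart from the setting's own construction (fewer arrays or genes), the cause was not tested. Same-numbered arrays had correlated deviations of 0.04 to 0.30 between subsets and 0.01 to 0.29 between genotypes. Where both subset and genotype differed, the values were -0.01 to 0.50. Of 14 arrays, 11 correlated best with an array of their own number, so arrays of 1 number were linked. The numbers were not taken as pairs because not all values were above 0.1. The main fit and the permutation tests therefore leave this link out, and its source was not tested. If arrays of 1 number share a mouse, the permutation p values between subsets would not hold. The replicate block gave 5 called members between KO subsets and 0 between genotypes in cTregs, the replicate block within genotype gave 6 between KO subsets and 8 Rab cycle genes there, and 2 members between control subsets, without Rab39b, and other counts stayed within 1.5 times. Every symbol had 1 row, so the choice of row could not matter, and the interaction needs all 4 groups.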
